A study of Mus musculus with 44 samples.

Results

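The T cell receptors described here are those whose CDR3 carries a cysteine inside the loop. CDR3 is the stretch of the α or β chain written by the joining of V, D and J segments, and its middle residues face the peptide. Every CDR3 is counted from the conserved Cys at the end of the V segment, so residue 1 is nearly always Cys. A second Cys from residue 4 on is uncommon. In mice, receptors with a Cys near the top of the loop are known for strong self-reactivity in the thymus and for being found among unconventional αβ T cells of the gut epithelium, which is why they are followed as a class. A CDR3 was a member if it held a Cys anywhere from residue 4 to the fourth from last. This window leaves out a Cys at residue 3, which the Trbv1 segment encodes. Such a Cys was in 4958 distinct TRB CDR3s and 899 alpha-class ones, as the classes are defined next. It was called TRB if it ended in the fixed letters of 1 of the 12 Trbj segments, and all others were placed in an alpha class. Of 121860 distinct CDR3s in the series, 1025 were members, 686 of 72765 TRB CDR3s (0.943%) and 339 of 49095 alpha-class CDR3s (0.690%). Counted once per tumour, there were 1056 entries, 707 TRB and 349 alpha class.

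The repertoires came from 44 subcutaneous tumours of B16F10, a mouse melanoma line, grown in wild-type C57BL/6 mice (C57BL/6J in the study's methods) and taken on day 12 as bulk tissue, with 1 library per tumour. There were 15 tumours treated with AC484, an inhibitor of the phosphatases PTPN2 and PTPN1, 15 treated with anti-PD-1, an antibody against the inhibitory receptor PD-1, and 14 labelled vehicle, which the study's methods and the deposited table give as no treatment. The RNA came from 100 μg of each tumour and mixes the T cells of that piece. Fewer cells of a clone and less receptor RNA per cell therefore cannot be told apart, and reads without molecular identifiers are not cells. Total reads per tumour ran between 8080 and 756858. TRB reads per tumour had a median of 135135 in AC484 tumours, 199348 in anti-PD-1 tumours and 56219.5 in vehicle tumours, and the smallest TRB and alpha-class totals, 5060 and 2710 reads, were both in vehicle tumours. Of the 4 index primer sets, AC484 and vehicle tumours shared none, so set and treatment cannot be told apart in that comparison.

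The alpha class does not hold α chains alone. Matched to the germline J segments of the mouse genome (GRCm38, RefSeq annotation), 214 of its 339 members ended like a Traj segment, 103 like a Trbj segment and 22 had no unique match. Of those with a Trbj match, 63 ended in CEQYF, that is, in the end of Trbj2-7 with Cys in the place of its Tyr, which the fixed ending YEQYF cannot match. By germline match, 789 of 83232 β CDR3s (0.948%) and 214 of 35230 α CDR3s (0.607%) were members. All 686 TRB members matched a Trbj segment. Results for the alpha class are therefore given as the class was defined, and with the germline chain where that changes them.

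The members found in the most tumours are shown first, because they show where the Cys sits. All letters are amino acids, and the Cys at residue 6, 7 or 8 is the internal Cys.
TRB, 3 tumours: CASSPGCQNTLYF
TRB, 2 tumours: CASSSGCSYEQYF
TRB, 2 tumours: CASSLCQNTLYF
TRB, 2 tumours: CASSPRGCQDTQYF
TRB, 2 tumours: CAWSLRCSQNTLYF
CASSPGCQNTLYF had 16, 5 and 3 reads in AC484 tumours 6, 7 and 12. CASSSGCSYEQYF had 48 reads in AC484 tumour 5 and 1 read in anti-PD-1 tumour 12, and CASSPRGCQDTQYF had 1 and 37 reads in AC484 tumours 1 and 5. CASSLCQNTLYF had 3 and 39 reads in anti-PD-1 tumours 11 and 13, and its entry in tumour 11 was a near-copy, a CDR3 1 residue away from another of the same tumour with at least 20 times its reads. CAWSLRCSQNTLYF had 37 reads in anti-PD-1 tumour 8 and 1 read in vehicle tumour 14. In all 5 the Cys stands directly before the J-encoded stretch, and in 4 of them that place is seventh from the end.

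In the alpha class the most widely found members differed more in where the Cys stood.
Alpha class, 4 tumours, Traj31 ending: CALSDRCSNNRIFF
Alpha class, 2 tumours, Trbj2-7 ending: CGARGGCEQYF
Alpha class, 2 tumours, Traj48 ending: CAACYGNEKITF
Alpha class, 2 tumours, Traj9 ending: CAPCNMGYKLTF
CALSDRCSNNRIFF had 1 and 6 reads in AC484 tumours 8 and 15, and 1 and 3 reads in anti-PD-1 tumours 2 and 12. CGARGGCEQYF, a β chain by its ending, had 18 and 11 reads in anti-PD-1 tumours 7 and 10. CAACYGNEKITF had 16 reads in AC484 tumour 5 and 10 reads in anti-PD-1 tumour 14. A CDR3 of 17 residues with a Traj32 ending had 1 and 6 reads in anti-PD-1 tumours 11 and 14, and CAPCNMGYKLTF had 1 and 3 reads in anti-PD-1 tumours 2 and 9. In these last 3 the Cys is at residue 4, the first residue of the window. None of these 10 CDR3s was found in more than 4 of the 44 tumours.

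The members that took the largest share of their chain's reads in each treatment group were small, with 1 exception. In TRB, the largest with AC484 had a Trbj2-7 ending and its Cys at residue 9 of 15, and held 236 reads in tumour 6 (0.0876% of the TRB reads). With anti-PD-1 it was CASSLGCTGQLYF, a Trbj2-2 ending, with 73 reads in tumour 15 (0.105%). In vehicle it had a Trbj1-2 ending and its Cys at residue 11 of 16, with 148 reads in tumour 13 (0.187%). Of the alpha class, the members below carried the most reads in their groups.
Alpha class, anti-PD-1 tumour 1: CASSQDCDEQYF
Alpha class, vehicle tumour 6: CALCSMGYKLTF
The largest with AC484 had a Traj9 ending and its Cys at residue 7 of 15, and held 15 reads in tumour 14 (0.0345% of the alpha-class reads). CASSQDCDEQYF, which ends like Trbj2-7, had 54 reads (0.0975%). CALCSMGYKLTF had 274 reads, 2.51% of alpha-class reads, and was of rank 9 among 203 alpha-class CDR3s in its tumour. It was the only member of either chain at or above 1% of its chain's reads. In the 41 tumours with a TRB member, the largest member ranked between 71 and 992 among TRB CDR3s, with a median rank of 337.

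Few members held more than 1 internal Cys. There were 3 such TRB members and 4 in the alpha class. Those with the most reads had 9 reads in anti-PD-1 tumour 12 (TRB, Trbj1-2 ending, 15 residues) and 19 reads in AC484 tumour 2 (alpha class, Traj53 ending, 16 residues).

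Cys was the rarest of the 20 residues inside the window, and CDR3s that carried it there had the fewest reads. Averaged over the 44 tumours, 0.642% ± 0.330 of distinct TRB CDR3s held a Cys in the window (SD). Met, the next rarest residue in TRB, was in 1.31% ± 0.448, Lys in 3.52% ± 0.707 and Ser, the most frequent, in 85.4% ± 1.54. In the alpha class, Cys was in 0.443% ± 0.244 of distinct CDR3s and His, the next rarest, in 3.84% ± 0.552. Rank by reads separated Cys from the other residues in both chains. Comparing each CDR3 that holds a residue with each that lacks it in the same tumour, with ties split evenly, the CDR3 with Cys had more reads in 37.8% ± 10.6 of pairs in TRB (SD, n = 41 tumours) and in 34.6% ± 12.8 in the alpha class (n = 40). For the other 19 residues this share lay between 48.6% (His) and 51.0% (Ser) in TRB, and between 47.2% (Lys) and 52.2% (Glu) in the alpha class. Met, which is also rare in TRB, stood at 49.8% ± 9.47.

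**Figure D1:**
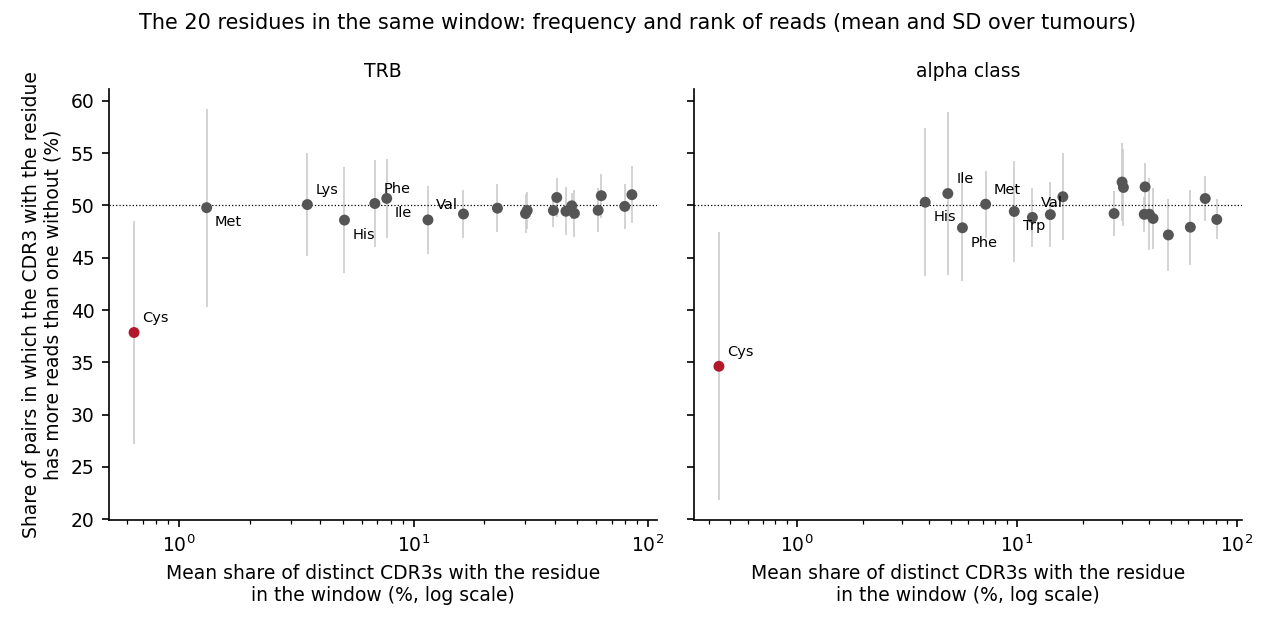
For each of the 20 residues, the x axis gives the mean share of distinct CDR3s that hold it in the window (%, log scale) and the y axis the share of pairs in which a CDR3 with the residue had more reads than one without it (%), as mean and SD over tumours, with the dotted line at equal ranks. Cys (red) is at the far left and lowest in both chains, at 37.8% in TRB and 34.6% in the alpha class, and only residues up to 13% on the x axis are named.

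Within a tumour, CDR3s with an internal Cys had fewer reads than the rest. TRB members averaged 9.31 ± 8.89 reads per CDR3 and the rest 85.5 ± 60.6 (SD, n = 41 tumours), and members were lower in 41 of 41 tumours. The mean log2 ratio was -3.31 (95% interval over tumours -3.73 to -2.94, two-sided sign-flip permutation test, adjusted p = 2.4e-05, where 1e-05 is the smallest unadjusted p of 100000 resamples). Alpha-class members averaged 7.58 ± 22.2 reads and the rest 37.0 ± 23.2 (n = 40), lower in 39 of 40 tumours, with a log2 ratio of -3.14 (-3.49 to -2.77, adjusted p = 2.4e-05). Vehicle tumour 6 carried much of that mean of members, and without it members averaged 4.10 ± 3.35 reads and the rest 36.5 ± 23.4 (n = 39), with a log2 ratio of -3.25. A mean weighs the largest clones most. Without the 10 largest other CDR3s of each tumour the log2 ratio was -2.01 in TRB and -1.98 in the alpha class (adjusted p = 2.4e-05 for both). With medians in place of means it was -0.89 in TRB (adjusted p = 3e-05) and -0.67 in the alpha class (adjusted p = 0.00115). The direction was the same in all these forms, and the size was not. By means, the log2 ratio was also below 0 for other rare residues in TRB. It was -1.31 ± 1.68 for Met (below 0 in 38 of 44 tumours), -0.89 ± 1.24 for Lys (38 of 44) and -0.96 ± 1.25 for His (34 of 44). For Ser, the most frequent residue, it was 0.60 ± 1.16 (below 0 in 14 of 44). A mean ratio below 0 is thus not particular to Cys, though that of Cys was the lowest of the 20 residues.

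**Figure D2:**
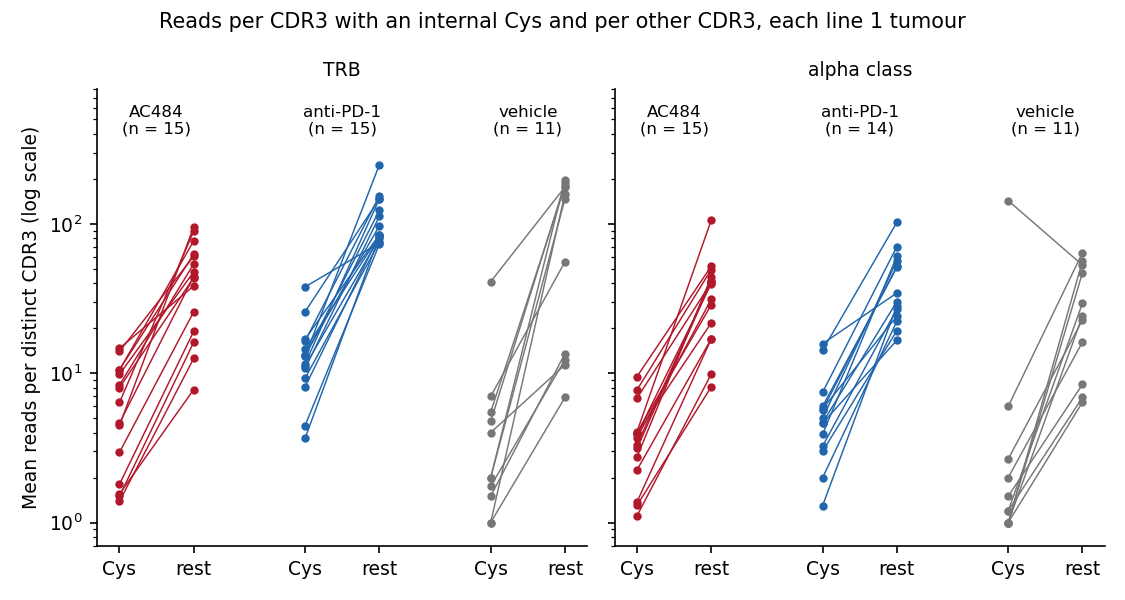
Mean reads per distinct CDR3 (log scale) of CDR3s with an internal Cys and of the other CDR3s, by chain and treatment, with each line 1 tumour that has a member. All 41 TRB lines and 39 of 40 alpha-class lines are lower on the Cys side, and the alpha-class line that runs the other way is vehicle tumour 6.

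More members than other CDR3s were seen by a single read. In TRB these were 34.1% ± 26.3 of members and 21.7% ± 13.1 of the rest, a difference of 12.4 points (6.21 to 18.8, adjusted p = 0.000377, higher in 33 of 41 tumours). Single-read shares in the alpha class were 51.6% ± 26.7 and 27.4% ± 12.8, a difference of 24.2 points (17.0 to 31.9, adjusted p = 2.4e-05, higher in 35 of 40). Over all tumours the share of TRB entries with a Cys was 1.14% among those of 1 read (Wilson 95% interval 1.01 to 1.29%), 0.766% at 2 to 4 reads, 0.622% at 5 to 9, 0.552% at 10 to 99 (0.474 to 0.643%) and 0.0739% at 100 or more (3 of 4057, 0.0252 to 0.217%). The alpha class ran the same way, with 0.814% among entries of 1 read (0.702 to 0.943%) and 0.0463% at 100 or more (1 of 2162, 0.00817 to 0.262%). Of 607 TRB entries at or above 1% of their tumour's TRB reads, 0 had an internal Cys, which allows a share of up to 0.494%. Among 3386 entries at or above 0.1% there were 4. These intervals cover counting error only.

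Near-copies were rarer among TRB members. They were 1.52% ± 2.86 of members and 2.49% ± 1.16 of the rest per tumour, a difference of -0.965 points (-1.74 to -0.101, adjusted p = 0.0329). Alpha-class near-copies were 5.78% ± 9.27 of members and 3.74% ± 1.39 of the rest (difference 2.04 points, -0.729 to 5.08, adjusted p = 0.199). Both signs turned with the germline chain, to 0.898 points for β chains (adjusted p = 0.495) and -1.65 points for α chains (adjusted p = 0.0537), and the TRB call was lost without AC484 tumour 6, anti-PD-1 tumour 1 or anti-PD-1 tumour 5 (adjusted p up to 0.0555). Of all member entries, 16 in TRB and 17 in the alpha class were near-copies, 14 of each differing from the larger clone at the Cys itself. There the larger clone most often had Ser (6) or Phe (3) in TRB, and Phe (5), Ser (3) or Tyr (2) in the alpha class. Of the 17 alpha-class near-copies, 8 ended in CEQYF.

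Members were seldom shared between tumours. Of the TRB members of a tumour, 6.05% ± 9.16 were found in at least 1 other tumour, against 39.7% ± 7.43 of its other TRB CDR3s (difference -33.7 points, -37.5 to -30.0, adjusted p = 2.4e-05, lower in 41 of 41). In the alpha class the shares were 7.26% ± 16.9 and 50.4% ± 4.55 (difference -43.2 points, -47.5 to -37.5, adjusted p = 2.4e-05, lower in 39 of 40). In all, 20 of the 686 TRB members were in more than 1 tumour, at most 3, while the most widely found other TRB CDR3 was in 39. For the alpha class it was 8 of 339, at most 4, against 44 for the rest. Members also had fewer reads, as given above, and the part of that in their lower sharing was not tested.

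The Cys of TRB members stood at or just after the middle of the loop. Median residue was 7 (quartiles 6 and 9), or seventh from the end (7 and 8), in CDR3s that averaged 14.2 ± 0.700 residues per tumour, against 14.1 ± 0.0483 for the rest (adjusted p = 0.450). Of 689 internal Cys residues in TRB, 592 (85.9%) were within 2 residues of the middle, as were 60.5% of all TRB window residues. Per 10000 residues of the window there were 25.4 Cys at the middle and 29.0 at the next residue towards J, but 5.52 at 2 residues before the middle and 0.987 at 3 residues after. Part of this is set by the rule, since the fixed endings leave no room for Cys in the last 5 residues of a TRB member. With the germline chain, which admits those, 82.5% of β Cys residues were within 2 of the middle. The rates for β chains were then 23.3 at the middle, 27.2 at the next residue and 5.25 at 3 residues after the middle. Alpha-class Cys residues lay more to either side, and 53.6% were within 2 residues of the middle. With distances rounded as above, 11.1% of them were at the middle, as were 13.2% of window residues. At 2 residues before the middle these shares were 20.6% and 12.9%, and at 3 after it 13.8% and 12.1%. In this class 73 of 343 Cys residues (21.3%) were at residue 4 and 80 (23.3%) at the fifth from last, the place filled in CEQYF. Among members that matched a Traj segment, 30.1% had the Cys at residue 4 and 2.31% at the fifth from last.

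**Figure D3:**
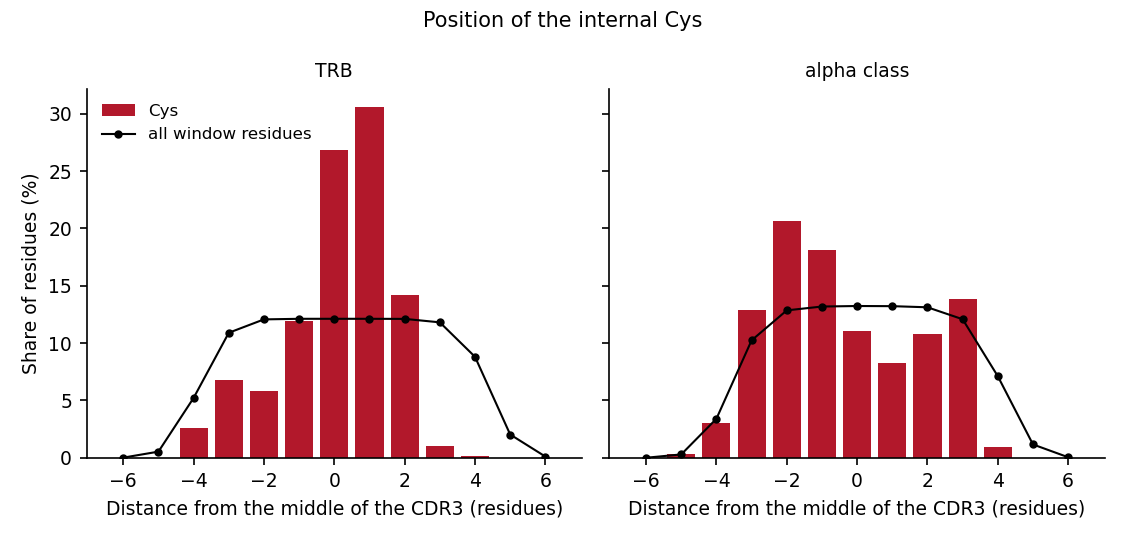
Share of internal Cys residues (red bars, %) and of all residues of the window (black line, %) by distance from the middle of the CDR3, in residues, negative towards V and positive towards J, for CDR3s of up to 20 residues, with half-residue distances of even lengths rounded up. TRB Cys residues peak at 0 (26.9%) and 1 (30.6%), and alpha-class ones at -2 (20.6%) and 3 (13.8%).

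Alpha-class members were longer on average, 14.1 ± 1.71 residues, than the rest, 13.5 ± 0.0663 (difference 0.646, 0.148 to 1.19, adjusted p = 0.0251), yet longer in only 20 of 40 tumours. There were 16 members of 24 to 71 residues (median 38), 14 of which matched a Traj segment. CDR3s over 20 residues made up 4.72% of alpha-class members and 0.0369% of the rest, and there were 0 among TRB members. Without them the difference was -0.119 residues (adjusted p = 0.319). The 16 long members had a median of 3 reads and came from 11 tumours.

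Where the Cys meets the J segment can be read against the germline. The segments below are shown because they hold the germline codons set against the Cys in what follows. They are from GRCm38 (RefSeq annotation), plus strand, with the codon of interest in capitals.
Trbj2-4, chr6:41543362-41543410: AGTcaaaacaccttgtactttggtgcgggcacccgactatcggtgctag
Trbj2-3, chr6:41543223-41543271: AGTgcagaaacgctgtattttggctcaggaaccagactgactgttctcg
Trbj2-7, chr6:41543810-41543856: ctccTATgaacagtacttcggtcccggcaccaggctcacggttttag
Trbj1-1, chr6:41533864-41533911: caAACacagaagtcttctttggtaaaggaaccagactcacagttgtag
Trbd1, chr6:41533201-41533212: gggacagggggc
Trbd2, chr6:41542163-41542176: gggactgggggggc
None of the 12 Trbj and 45 Traj segments read encodes a Cys in its CDR3 part, nor does either Trbd segment in a forward frame, nor any of 22 Trbv segments after residue 3 of the CDR3. Trav segments are not part of this count, so it does not cover the V end of α chains. Only 1 frame of Trbd1, read on the opposite strand, holds a Cys codon. The marked AGT of Trbj2-3 and Trbj2-4 encodes Ser, and the Cys codon TGT differs from it in the first base. The TAT of Trbj2-7 encodes Tyr and differs from TGT in the second base, and the AAC of Trbj1-1 encodes Asn.

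Endings of Trbj2-4 and Trbj2-3 had the largest shares of members. With all tumours pooled, 116 of 5219 distinct Trbj2-4 CDR3s (2.22%, Wilson 95% interval 1.86 to 2.66%) and 112 of 7258 Trbj2-3 CDR3s (1.54%, 1.28 to 1.85%) were members. Trbj2-4 ended 16.9% of TRB members and 7.17% of all TRB CDR3s, and Trbj2-3 ended 16.3% and 9.97%. In the pooled counts Trbj1-5 followed with 1.22% (0.837 to 1.76%), overlapping Trbj2-3 but not Trbj2-4, and the other 9 endings lay between 1.02% (Trbj2-2, 49 of 4805) and 0.437% (Trbj1-6, 11 of 2515). Averaged per tumour, the share was 1.67% ± 1.78 for Trbj2-4, 0.957% ± 0.872 for Trbj2-3 and 0.386% ± 0.860 for Trbj1-6 (SD, n = 44). By that average Trbj1-5 did not stand out, with 0.654% ± 1.05 (n = 43) beside 0.664% ± 0.954 for Trbj2-2 and 0.647% ± 0.962 for Trbj1-2. Taken by cluster, members were 0.501% ± 0.317 of Trbj1 CDR3s and 0.791% ± 0.377 of Trbj2 CDR3s within a tumour, a difference of -0.290 points (-0.428 to -0.155, adjusted p = 0.00032, lower in 29 of 41). Without CDR3s of a single read it was -0.175 points (adjusted p = 0.102). TRB also exceeded the alpha class within tumours, 0.642% ± 0.330 against 0.443% ± 0.244 (difference 0.199 points, 0.0824 to 0.316, adjusted p = 0.00306, higher in 30 of 44), and the difference was 0.275 points with the germline chain (adjusted p = 5.14e-05).

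**Figure D4:**
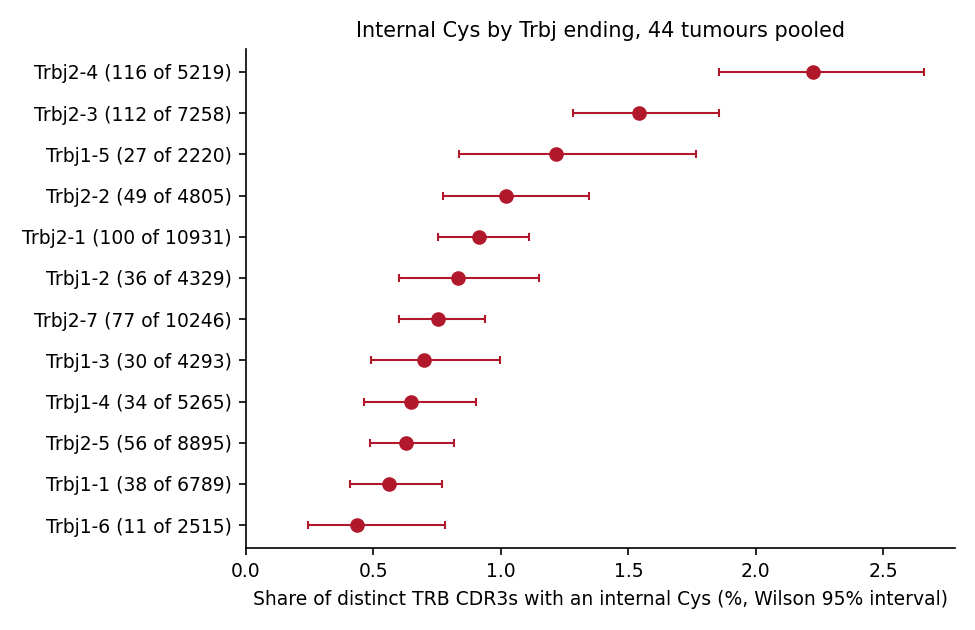
Share of distinct TRB CDR3s with an internal Cys (%, all 44 tumours pooled) for each of the 12 Trbj endings, with Wilson 95% intervals that cover counting error only and the number of members and of CDR3s in brackets. Trbj2-4 (2.22%) and Trbj2-3 (1.54%) are at the top and Trbj1-6 (0.437%) at the bottom.

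Read back from the end of each CDR3 to the first residue that departs from germline J, the Cys was that residue in 468 of 686 TRB members (68.2%), and in 380 (55.4%) it stood in the place of a germline J residue. Where the match to Trbj2-4 ended at its Ser codon, Cys filled the place in 90 of 2613 CDR3s (3.44%, 2.81 to 4.22%) and ranked 8 among residues there, with Gly first in 1080. At the same codon of Trbj2-3 it was Cys in 85 of 3045 (2.79%, 2.26 to 3.44%) and ranked 6, with Gly first in 1495. Over both, the share was 3.09% (175 of 5658). At the other germline J codons where a match of these TRB CDR3s ended, it was 0.558% (205 of 36754). The fixed endings keep most places near the end out of this count, which holds 1 CDR3 at the Tyr codon of Trbj2-7. At the 8 places encoded by AAC, Cys was in 139 of 17068 (0.814%). Those places differed widely, with 1.74% at the first AAC of Trbj1-5 (16 of 918), 1.67% in Trbj2-2 (31 of 1861), 0.470% in Trbj1-1 (14 of 2976) and 0 of 464 at the next AAC of Trbj1-5. In CDR3s of either class that end in EQYF, Cys stood at the Tyr codon of Trbj2-7 in 63, which is 1.19% of those with another residue than Tyr there. The residue before the Cys was Gly in 260 of 689 cases (37.7%, while 16.7% of other window residues follow Gly), Ser in 14.7% (25.02% for other window residues) and Asp in 10.9% (6.57%). Gly and Asp were thus more frequent before a Cys than before other window residues, and Ser less. The other residues were not matched to the Cys for position, and the part of position in this was not tested. After the Cys came Gln in 17.7% (10.6% for other window residues), Ala in 17.4% (6.79%) and Ser in 13.6% (5.75%). These include the second residue of Trbj2-4, that of Trbj2-3 and the first of Trbj2-7. At the V end, CASS began 64.6% of TRB members and 63.2% of other TRB CDR3s. By start, members were 0.963% of CDR3s beginning CASS (443 of 45998), 0.613% of those beginning CASG (46 of 7499) and 0.391% of those beginning CTC (19 of 4863), and these shares were not tested against each other. The Cys at residue 3 of a CTC start lies outside the window and is not counted.

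Whether treatment changed the share of such receptors was tested on 7 measures in 3 comparisons, 21 tests in all. None passed at an adjusted p of 0.05, and 3 had an unadjusted p under 0.05, all of them AC484 against vehicle in TRB. Shares of distinct CDR3s were brought to an equal depth, the number of distinct CDR3s expected at the smallest total of that chain. At that depth the share of distinct TRB CDR3s was lowest 0.322%, median 0.509% and highest 0.917% in AC484 tumours. It was 0.0769%, 0.422% and 1.20% in anti-PD-1 tumours, and 0%, 0.265% and 1.19% in vehicle tumours. The groups overlapped, with the AC484 tumours inside the range of vehicle tumours and 3 of them (tumours 1, 2 and 5, with 108 to 270 TRB CDR3s) at 0. Means were 0.539% ± 0.170 for AC484, 0.464% ± 0.296 for anti-PD-1 and 0.343% ± 0.358 for vehicle (SD, n = 15, 15 and 14). AC484 minus vehicle was 0.196 points (95% interval -0.00736 to 0.390, permutation test, adjusted p = 0.332), AC484 minus anti-PD-1 was 0.0756 points (-0.0953 to 0.240, adjusted p = 0.710) and anti-PD-1 minus vehicle was 0.121 points (-0.115 to 0.347, adjusted p = 0.710). At that depth AC484 tumours held on average 4.62 member CDR3s, anti-PD-1 tumours 3.05 and vehicle tumours 1.45, so single CDR3s weigh heavily. With counts scaled to that depth and rounded, in place of expected numbers, AC484 minus vehicle was 0.0267 points (adjusted p = 0.960). As deposited, the means were 0.799% for AC484, 0.635% for anti-PD-1 and 0.482% for vehicle.

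Members took 0.121% ± 0.0638 of TRB reads in AC484 tumours, 0.0989% ± 0.0900 in anti-PD-1 tumours and 0.0553% ± 0.0761 in vehicle tumours. Read share ran between 0.0329% and 0.263% with AC484 (median 0.116%), between 0.00885% and 0.326% with anti-PD-1 (median 0.0801%) and between 0 and 0.259% in vehicle (median 0.0231%). AC484 minus vehicle was 0.0662 points (0.0156 to 0.114, permutation p = 0.0176, adjusted p = 0.222), with 15 of 15 AC484 tumours above the vehicle median. Without vehicle tumour 13, which holds the TRB member of 148 reads, it was 0.0819 points (adjusted p = 0.0202). A central Cys, within 2 residues of the middle, was in 0.489% ± 0.175 of distinct TRB CDR3s in AC484 tumours, 0.408% ± 0.296 in anti-PD-1 tumours and 0.287% ± 0.292 in vehicle tumours, and AC484 minus vehicle was 0.202 points (0.0305 to 0.371, p = 0.0317 by permutation test, adjusted p = 0.222), or 0.0745 points with scaled and rounded counts (adjusted p = 0.960). The log2 ratio of reads per member to reads per other TRB CDR3 was -2.89 ± 0.75 in AC484 tumours, -3.12 ± 0.87 in anti-PD-1 tumours and -4.17 ± 1.99 in the 11 vehicle tumours that had a member. AC484 minus vehicle was 1.28 (0.14 to 2.44, permutation p = 0.0294, adjusted p = 0.222). With median reads it was 0.62 (permutation p = 0.176, adjusted p = 0.741), and a permutation test on ranks of the ratios gave p = 0.199. Vehicle ratios ran from -7.31 (tumour 14, 3 members) to -1.51 (tumour 8, 2 members). Vehicle tumours 7 and 11, with 11 and 12 members, stood at -2.99 and -2.81. A ratio from few members varies widely, and the part of member number in this difference was not tested.

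These TRB differences moved when libraries of low concentration were left out. Libraries under 3.5 nM were 4 of 15 with AC484, 0 of 15 with anti-PD-1 and 5 of 14 with vehicle. Vehicle tumour 13 (3.02 nM) is among them. It had the highest TRB shares of the vehicle tumours, 1.19% of distinct CDR3s at equal depth and 0.259% of reads. This alternative thus also drops the tumour whose removal alone brought TRB reads to a call. Without such libraries AC484 minus vehicle was 0.348 points for distinct CDR3s (permutation test, adjusted p = 0.0295) and 0.112 points for reads (adjusted p = 0.00339). For a central Cys it was 0.301 points (adjusted p = 0.0498), and for the log2 read ratio 2.76 (adjusted p = 0.00339). Anti-PD-1 minus vehicle was 0.0808 points for reads (adjusted p = 0.0498) and 2.46 for the log2 ratio (adjusted p = 0.00339). The vehicle side of these log2 ratios rests on tumours 3, 4, 6, 7, 12 and 14, with 1, 2, 1, 11, 4 and 3 TRB members. AC484 tumours kept had 8 to 81 members each. Medians and ranks were not run without these libraries. Within an index set, the 7 AC484 and 5 anti-PD-1 tumours of set 3 averaged 0.529% and 0.532% of distinct TRB CDR3s, and the 10 anti-PD-1 and 2 vehicle tumours of set 2 averaged 0.429% and 0.606% (exact permutation tests, adjusted p = 0.987 and 0.879).

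**Figure D5:**
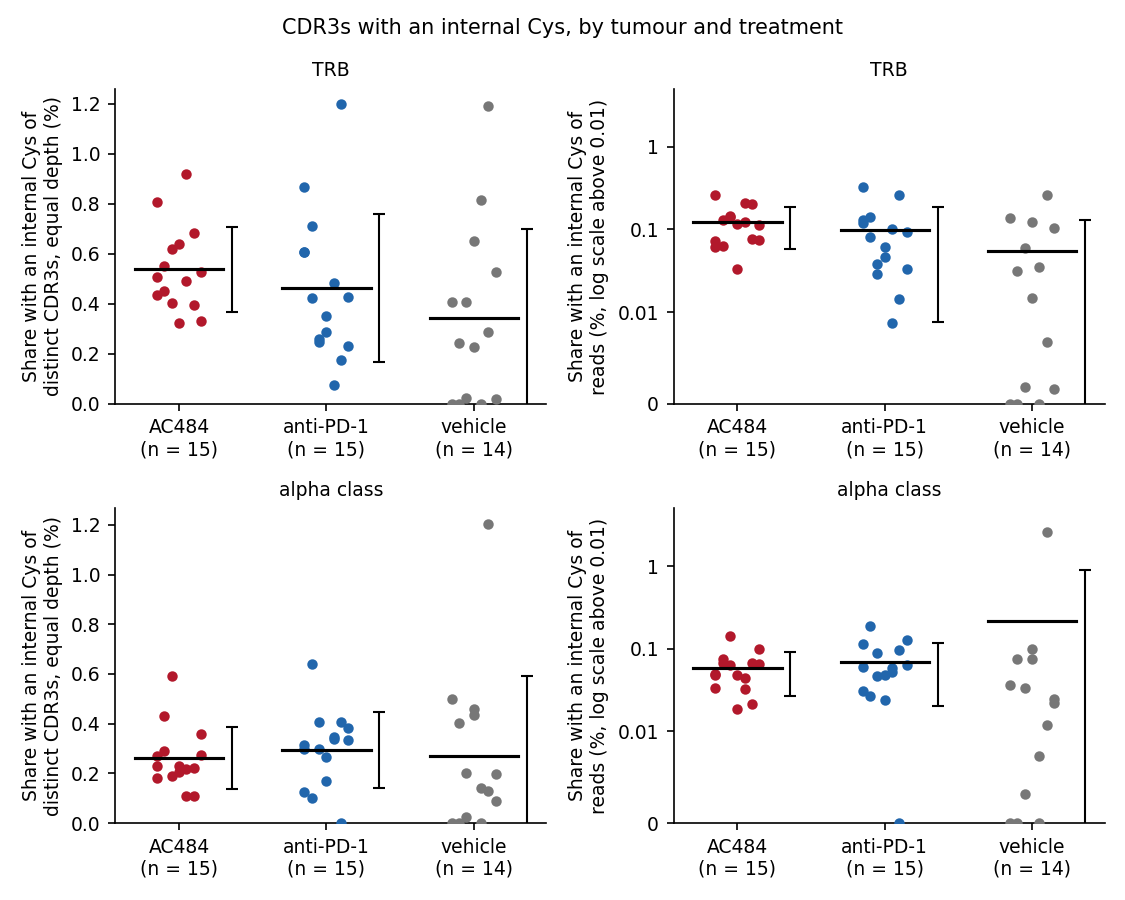
Share of distinct CDR3s at equal depth (left, %) and of reads (right, %, logarithmic above 0.01%) with an internal Cys in each tumour, by chain and treatment, with points for tumours, horizontal lines for means and bars for SD. AC484 tumours lie between 0.322% and 0.917% of distinct TRB CDR3s, inside the range of vehicle tumours (0% to 1.19%), and the highest alpha-class read share, 2.62%, is vehicle tumour 6.

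In the alpha class no comparison had an unadjusted p under 0.05. At equal depth, distinct shares averaged 0.260% ± 0.124 in AC484, 0.295% ± 0.153 in anti-PD-1 and 0.270% ± 0.324 in vehicle tumours. AC484 minus vehicle was -0.00971 points (-0.195 to 0.149, adjusted p = 0.960), AC484 minus anti-PD-1 was -0.0345 points (-0.129 to 0.0647, adjusted p = 0.710) and anti-PD-1 minus vehicle was 0.0248 points (-0.169 to 0.189, adjusted p = 0.960). Read shares averaged 0.0583% ± 0.0318 for AC484, 0.0685% ± 0.0482 for anti-PD-1 and 0.214% ± 0.692 for vehicle. The vehicle mean rests on tumour 6 and its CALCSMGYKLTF, where members held 2.62% of reads. Without that tumour AC484 minus vehicle was 0.0286 points and anti-PD-1 minus vehicle 0.0388 points (adjusted p = 0.196 for both), in place of -0.156 and -0.146 points. The log2 read ratio of the class was -3.19 ± 0.65 for AC484, -2.94 ± 0.85 for anti-PD-1 and -3.31 ± 1.98 for vehicle (n = 15, 14 and 11), with permutation-test adjusted p of at least 0.710.

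The alpha-class comparison depended on the window. The Cys was at residue 4 in 36 of 212 distinct members in AC484 tumours, 27 of 107 in anti-PD-1 tumours and 11 of 23 in vehicle tumours, and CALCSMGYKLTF is of that kind. With the window narrowed to residue 5 to the fifth from last, AC484 minus vehicle was 0.149 points and anti-PD-1 minus vehicle 0.178 points of distinct alpha-class CDR3s (adjusted p = 0.0022 for both), and 0.0358 and 0.0477 points of reads (adjusted p = 0.00168 and 0.00189). With the same window and the germline chain, which removes the β chains from the class, these were 0.0978, 0.0756, 0.0263 and 0.0208 points (adjusted p between 0.0723 and 0.0934). In TRB, the Cys was at residue 4 in 30 of 453 members in AC484, 16 of 195 in anti-PD-1 and 2 of 46 in vehicle tumours.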

How the data were processed

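From 44 tumours, TCR libraries (SMARTer Mouse TCR a/b) were sequenced on a MiSeq. The authors assembled reads with MiXCR into amino acid clonotypes, and the submitters' processing notes name mm10. As deposited, the table holds read counts per CDR3 and tumour for both chains, with no V gene and no nucleotides, together with the fraction of reads, which was not used, CDR3 length and library concentration.

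Members and lists were chosen with earlier results of these data known. Equal depth was the expected number of distinct CDR3s in 5060 TRB or 2710 alpha-class reads, computed without drawing. Treatments were compared by two-sided permutation tests of tumour means (100000 resamples, exact where a group held under 10) and members with other CDR3s by sign-flip permutation within tumours, with Benjamini-Hochberg adjustment over 21 and 12 tests and 95% intervals of the mean differences from 10000 draws of tumours with replacement. Where tumours had no member, ratios left them out. The germline chain was that of the GRCm38 J segment sharing the most terminal residues, with a minimum of 4. Named CDR3s were, per chain, the 5 in the most tumours, the largest by share of reads in each treatment, and that with 2 or more internal Cys in the most tumours, with ties by reads. All 12 Trbj endings and 20 residues were compared. Methods were tested on simulated data. Nothing in the labels says that tumours of a group came from separate experiments, so p-values measure the spread between these tumours. Calculations used SciPy 1.17.1, NumPy 2.4.6 and pandas 2.3.3 under Python 3.11.15, and plots matplotlib 3.10.9.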

Additional observations from a re-analysis of the deposited data

How the results depend on the processing

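Alternatives covered depth, filters, chain, window, test, batch, library concentration and each tumour left out. Those chosen after seeing the data were the rank, the median and the largest clones left out for reads within tumours, the filter on length, low concentration within tumours, and the narrower window joined with the germline chain. The lower read numbers and lower sharing of members kept direction and call under all alternatives tried and in each treatment alone.

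Among treatment differences, alpha-class distinct shares turned for AC484 minus vehicle as deposited (0.143 points), with both chains at 1 total (0.0273) and without single-read CDR3s (0.00713), and for anti-PD-1 minus vehicle with scaled counts (-0.0333) and the germline chain (-0.0310). TRB distinct share turned for AC484 minus anti-PD-1 with scaled counts (-0.0130), which also lowered AC484 minus vehicle to 0.0267 (distinct) and 0.0745 (central) and anti-PD-1 minus vehicle to 0.0396 (distinct). As deposited, TRB AC484 minus vehicle was 0.318 (adjusted p = 0.185). With the window from residue 5, alpha-class differences from vehicle became 0.149 and 0.178 (distinct) and 0.0358 and 0.0477 (reads) for AC484 and anti-PD-1. Joined with the germline chain, turned values were 0.0978 and 0.0222 (distinct, AC484 minus vehicle and minus anti-PD-1) and 0.0263, 0.00555 and 0.0208 (reads, AC484 minus vehicle, AC484 minus anti-PD-1, anti-PD-1 minus vehicle). Alpha-class log2 read ratios turned for AC484 minus vehicle without single reads (-0.31) and, with medians, for AC484 minus vehicle (-0.0045), AC484 minus anti-PD-1 (0.14) and anti-PD-1 minus vehicle (-0.14), and medians lowered the TRB ones to 0.62, 0.06 and 0.56 in the same order. Without libraries under 3.5 nM, AC484 minus vehicle became 0.348 (TRB distinct), 0.112 (reads), 0.301 (central) and 2.76 (log2 ratio), and anti-PD-1 minus vehicle 0.0808 (reads) and 2.46 (log2 ratio).

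Within index sets, AC484 minus anti-PD-1 turned to -0.00291 (TRB distinct), -0.0199 (TRB reads), 0.0341 (alpha-class distinct), 0.0245 (alpha-class reads), -0.048 (TRB log2 ratio) and 0.24 (alpha-class log2 ratio), and anti-PD-1 minus vehicle to -0.177 (TRB distinct), -0.0495 (TRB reads), -0.0436 (central) and 0.0621 (alpha-class reads), on 2 to 10 tumours a group.

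Within tumours, the TRB near-copy difference was -0.502 points without single reads, 0.898 with the germline chain, -0.951 from residue 5, -1.01 without low concentrations, -0.729 in AC484 and -0.907 in anti-PD-1 tumours alone, none of them called, and the alpha-class one turned with the germline chain (-1.65) and in AC484 tumours (-1.02). Trbj1 minus Trbj2 lost its call without single reads (-0.175), in AC484 (-0.223) and in vehicle tumours alone (-0.180). Alpha-class length was 0.914 in AC484, 1.06 in anti-PD-1 and -0.248 in vehicle tumours alone, and -0.119 without CDR3s over 20 residues. Single-read shares lost their call in anti-PD-1 (6.81 points, TRB) and vehicle tumours (15.4 points, TRB, and 29.4 points, alpha class), and TRB minus alpha class in anti-PD-1 (0.143 points) and vehicle tumours (0.137 points). Fewer tumours enter each of these.

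With each tumour left out, AC484 minus vehicle ranged over 0.0561 to 0.0819 points (TRB reads, called without vehicle tumour 13), -0.0335 to 0.0621 (alpha-class distinct), -0.173 to 0.0286 (alpha-class reads) and -0.13 to 0.59 (alpha-class log2 ratio), anti-PD-1 minus vehicle over -0.162 to 0.0388 (alpha-class reads), and the TRB near-copy difference over -1.19 to -0.875. Differences with no change of direction or call also moved by over 1.5 times. TRB distinct shares ranged over 0.0480 to 0.128 (AC484 minus anti-PD-1, without anti-PD-1 tumours 12 and 13) and 0.0681 to 0.186 (anti-PD-1 minus vehicle, without anti-PD-1 tumour 13 and vehicle tumour 13), and alpha-class ones over -0.0582 to -0.00985 (AC484 minus anti-PD-1, without AC484 tumour 3 and anti-PD-1 tumour 9) and 0.000144 to 0.0966 (anti-PD-1 minus vehicle, without anti-PD-1 tumour 9 and vehicle tumour 6). TRB reads ranged over 0.0125 to 0.0388 (AC484 minus anti-PD-1) and 0.0273 to 0.0593 (anti-PD-1 minus vehicle). The cause of these changes was not tested. Sample titles give a replicate number but do not say whether it pairs tumours. Deviations in Trbj usage of same-numbered tumours correlated above 0.1 in 4 of 14, 4 of 15 and 7 of 14 numbers. These correlations were not tested and do not settle pairing. With the number as a block, AC484 minus vehicle in TRB reads was 0.0561 points (sign-flip permutation test, adjusted p = 0.426), with no call in 21 tests. Vehicle tumours had 108 to 1383 TRB CDR3s, which limits what their shares can show.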
